A study of Mus musculus with 69 samples.

Results

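Toll-like receptors and the feedback genes of NF-kB signalling were followed in the lungs of mice given titanium dioxide nanomaterials (NMs). The genes are 4 Toll-like receptors (Tlr2, Tlr4, Tlr7 and Tlr13), the co-receptor Cd14, the adaptor Myd88, the cytokine Tnf and the feedback genes Tnfaip3, Nfkbia and Nfkbiz. They were chosen by name, through probes whose listed accession maps to the gene's RefSeq symbol, and 9 of the 10 had a probe, 1 each, among the 18656 genes tested. No probe mapped to Tlr13, which was not measured here. Whole-lung RNA was measured in 69 female C57BL/6 mice, 1 two-colour array per mouse, after a single intratracheal instillation at an age of 5 to 7 weeks plus 1 to 3 weeks of acclimatisation. The mice received 18, 54 or 162 µg of NRCWE-025 or of NRCWE-030, which are 2 titanium dioxide NMs, or the vehicle alone, 2% serum in water, which the NM groups received too. Lungs were collected on day 1 or day 28. Of the 14 groups 13 had 5 mice, and the group of NRCWE-025 at 162 µg on day 28 had 4. Comparisons of NRCWE-025 and NRCWE-030 within a day share the same 5 control mice. The p-values measure the spread between mice with 1 array each, so differences between arrays, slides and scan days are part of it.

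Toll-like receptors recognise microbial products and debris of damaged cells, most of them pass the signal on through the adaptor MyD88, and the pathway ends in the release of NF-kB from its inhibitor IκBα, the product of Nfkbia. NF-kB then raises inflammatory genes such as Tnf. It also raises its own brakes: Nfkbia, which recaptures NF-kB in the cytoplasm, and Tnfaip3, whose product A20 edits ubiquitin on upstream signalling proteins. Nfkbiz is raised too, and its product IκBζ acts in the nucleus and is needed for a second set of target genes. In the lung the receptors are carried by macrophages, other leukocytes and epithelium. In whole-lung RNA, more cells of a type and more RNA per cell cannot be told apart.

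Promoter sequence was read for 6 of the 10 genes, in RefSeq for build GRCm38.p6. It was not at hand for Tlr4, Tlr7 and Nfkbiz, and that of Cd14 is not reported here. The windows of Tlr2, Tnfaip3 and Nfkbia are shown because they hold the consensus decamer that NF-kB binds, and that of Myd88 because the gene was called. Each window holds the 250 bases before the annotated start, written 5′ to 3′ on the gene's own strand, which is the minus strand for the 4 shown, and capitals mark the decamer on either strand.
Tlr2, chr3:83841609-83841858: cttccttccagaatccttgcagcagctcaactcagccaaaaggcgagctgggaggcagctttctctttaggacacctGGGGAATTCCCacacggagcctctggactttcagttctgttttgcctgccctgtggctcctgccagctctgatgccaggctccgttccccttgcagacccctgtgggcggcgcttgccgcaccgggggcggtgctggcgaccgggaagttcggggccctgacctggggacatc
Tnfaip3, chr10:19015411-19015660: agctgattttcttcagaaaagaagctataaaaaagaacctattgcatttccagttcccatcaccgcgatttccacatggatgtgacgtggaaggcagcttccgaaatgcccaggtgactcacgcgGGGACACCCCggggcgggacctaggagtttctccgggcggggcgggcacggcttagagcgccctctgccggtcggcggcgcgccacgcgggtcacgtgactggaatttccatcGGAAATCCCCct
Nfkbia, chr12:55492648-55492897: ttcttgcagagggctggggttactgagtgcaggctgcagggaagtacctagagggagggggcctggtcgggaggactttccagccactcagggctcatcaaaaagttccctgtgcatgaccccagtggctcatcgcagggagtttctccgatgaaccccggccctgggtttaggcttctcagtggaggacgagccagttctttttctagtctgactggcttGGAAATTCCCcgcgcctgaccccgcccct
Myd88, chr9:119340019-119340268: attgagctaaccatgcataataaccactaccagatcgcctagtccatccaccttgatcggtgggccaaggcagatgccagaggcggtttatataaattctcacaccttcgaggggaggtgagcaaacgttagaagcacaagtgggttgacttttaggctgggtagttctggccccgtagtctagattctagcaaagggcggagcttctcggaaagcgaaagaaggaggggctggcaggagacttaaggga
The Tlr2 window held overlapping matches from 173 to 163 bases before the start. Tnfaip3, the gene of A20, had a match 125 to 116 bases and another 12 to 3 bases before its start. The Nfkbia match lay 29 to 20 bases before the start. No match was in the window of Myd88, in those of Tnf and Tlr13 or in that of a second Tnfaip3 start. Of 32851 windows of 250 bases in the reference table, 2382 (7.25%) held the decamer. A match is a description of the letters and not a measured binding site.

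Values are log2 ratios of lung RNA (Cy5) to a commercial pool of mouse reference RNA (Cy3), so they compare groups for 1 gene and do not rank genes against each other. Tlr2, Tlr4, Myd88 and Tnf were each printed on 10 spots per array, and the SD between spots of an array (median over arrays) was 0.059 for Tlr2, 0.084 for Tlr4, 0.057 for Myd88 and 0.12 for Tnf. The SD between mice of a group was larger for each: 0.25, 0.15, 0.19 and 0.26, in the same order. The other 5 genes had 1 spot. All were well above background in Cy5 on 69 of 69 arrays except Tnf, which reached that mark on 59 of 69 arrays, and no spot was saturated. Per array, between 49.1% and 72.8% of spots passed that mark. The lung markers were present: Sftpc, a surfactant gene of alveolar type 2 cells, and Scgb1a1 of club cells had median log2 ratios of 7.12 and 6.73. Over the 14 group means the genes differed in how far they moved: Cd14 spanned 1.39 log2 units, Nfkbia 1.06, Tlr7 0.93, Tlr2 0.83, Nfkbiz 0.79, Tnf 0.59, Tnfaip3 0.57 and Myd88 0.42, while Tlr4 spanned 0.21. The pooled SDs within groups were, for the genes in that order, 0.55, 0.50, 0.28, 0.25, 0.33, 0.26, 0.26, 0.19 and 0.15. In the order of a gene's 14 means, neighbouring groups differed by more than the larger of their SDs in 1 of 13 steps for Tlr2, Tlr7 and Myd88 and in 0 of 13 for each of the other 6 genes. Neighbours in a sorted order are close by construction, so this count does not tell whether groups differ.

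On day 1, 2 of the 9 measured genes rose at 162 µg of NRCWE-030: Nfkbiz and Myd88, the gene of a nuclear NF-kB regulator and that of the receptors' adaptor. A gene was called at a limma p, adjusted by Benjamini-Hochberg over all genes, under 0.05. In this comparison 319 of 18656 genes (1.71%) were called, 230 (1.23%) higher and 89 lower (247 and 56 without background correction). Of the 9 genes, 6 had an unadjusted p under 0.05, against 12.9% of all genes. At 18 µg 1 gene of the 18656 was called (0.00536%) and at 54 µg 15 (0.0804%), none of them among the 9 by limma. Of the 9, 1 and 3 had an unadjusted p under 0.05, against 1361 and 1632 of the 18656. The fitted differences of 8 of the 9 genes were above 0, with a median of 0.48, against 51.3% of all genes and a median over all genes of 0.0045.

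**Figure D1:**
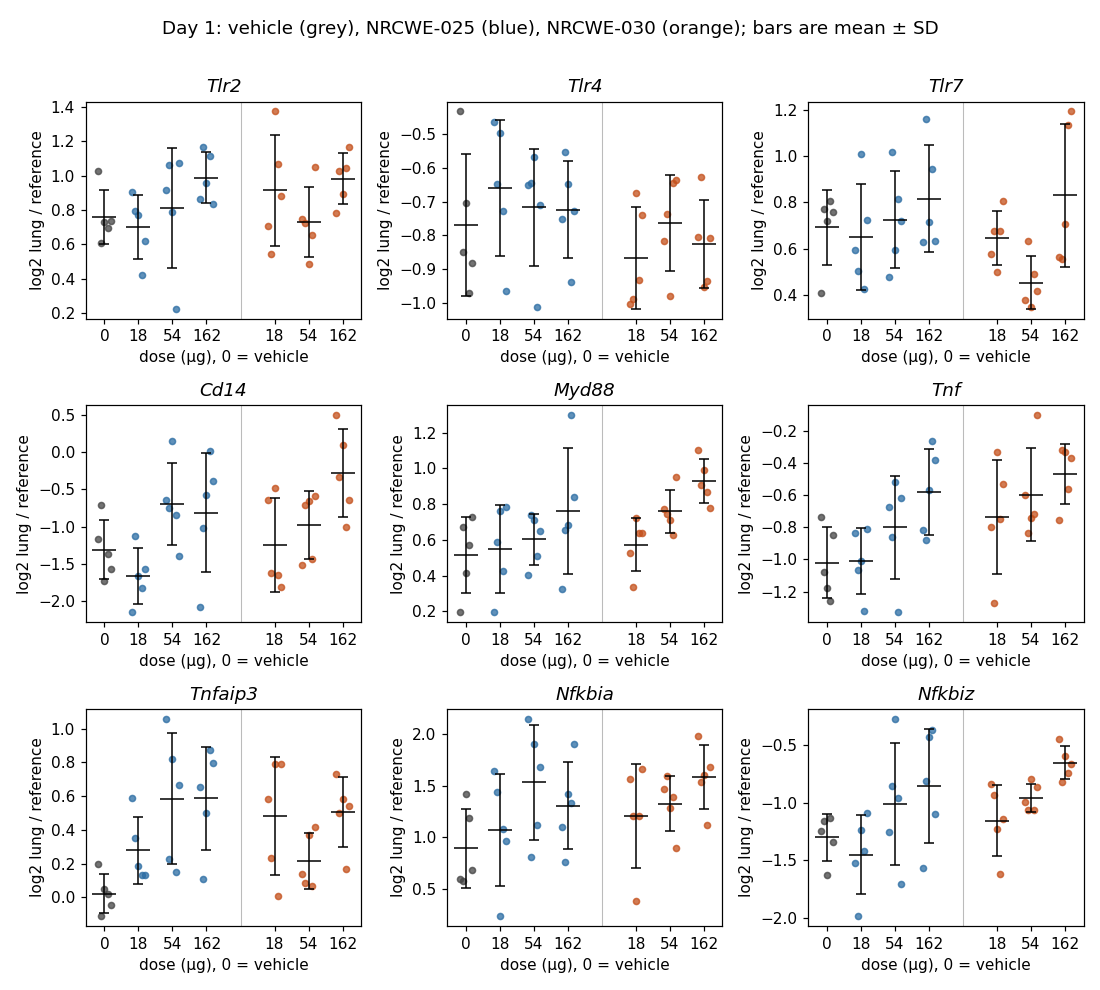
Log2 ratio of lung to reference on day 1 (vertical axis) against dose in µg (horizontal axis) for the 9 measured genes, 1 point per mouse, with the group mean and SD as bars. The 5 mice at 162 µg of NRCWE-030 lie above all 5 controls for Nfkbiz and Myd88, and the Tlr4 points of every group overlap those of the controls.

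The receptors had smaller values on day 1. Tlr2, which senses bacterial lipoproteins, had a difference of 0.22 ± 0.13 (SE) at 162 µg of NRCWE-030 (adjusted p = 0.538). For Tlr7, an endosomal sensor of single-stranded RNA, it was 0.14 ± 0.12 (adjusted p = 0.727), with the other sign when the slide (-0.10) or the scan day (-0.02) was a fixed block. Tlr4, the receptor of lipopolysaccharide, gave -0.06 ± 0.10 (adjusted p = 0.907), with a 95% interval from -0.27 to 0.16, and 0.05 and 0.01 under the same blocks.

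Cd14, the co-receptor that hands lipopolysaccharide to the Tlr4 complex, had the greatest fitted difference of the 9 genes in this comparison and did not pass the test. It read -1.16, -0.71, -1.73, -1.37 and -1.57 in the controls and 0.50, -0.34, 0.10, -1.01 and -0.64 at 162 µg of NRCWE-030, where 4 of 5 mice were above all controls. The difference was 1.03 ± 0.31 (SE) with an adjusted p of 0.1, and its 95% interval ran from 0.39 to 1.67. The spread among mice of a group was wide for Cd14, at a pooled SD of 0.55. With the slide as a random block the difference was 1.14 and passed (adjusted p = 0.0331).

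Myd88, the adaptor shared by most Toll-like receptors and by the receptor of interleukin-1, read 0.20, 0.67, 0.41, 0.57 and 0.73 in the controls. At 162 µg of NRCWE-030 it read 1.11, 0.91, 0.99, 0.87 and 0.78. These groups did not overlap, although the lowest treated mouse and the highest control were close. The means were 0.52 ± 0.21, 0.57, 0.76 ± 0.12 and 0.93 ± 0.12 from control to 162 µg (SD, n = 5). The difference at 162 µg was 0.42 ± 0.10 (SE), 1.33-fold, with an adjusted p of 0.0372. Over all genes, 540 of 18656 (2.89%) had every mouse at 162 µg above every control, and of the 9 genes these were Nfkbiz and Myd88. Myd88 fell short of the threshold without control replicate 1 (0.34, adjusted p = 0.0876), 3 (0.39, adjusted p = 0.0821) or 4 (0.43, adjusted p = 0.0659), and without replicate 1 (0.37, adjusted p = 0.0972), 2 (0.42, adjusted p = 0.0814), 3 (0.40, adjusted p = 0.0773) or 4 (0.43, adjusted p = 0.0536) at 162 µg. It also did so in the authors' values (0.43, adjusted p = 0.0576), with the slide as a fixed block (0.33, adjusted p = 0.188) and with the scan day as a fixed block (0.30, adjusted p = 0.282).

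Tnf, the cytokine, read -0.73, -1.08, -1.18, -1.26 and -0.85 in the controls. At 162 µg of NRCWE-030 it read -0.75, -0.32, -0.33, -0.56 and -0.37, with 4 of 5 mice above all controls. Its means were -1.02 ± 0.22, -0.74, -0.60 and -0.47 ± 0.19 from control to 162 µg (SD, n = 5). The difference of 0.55 ± 0.16 (SE) had an adjusted p of 0.0933. Its probe was dim, with a median Cy5 signal of 35, and the scanner software's own log ratio gave 1.66 with an adjusted p of 0.0041. The difference of 0.55 also passed with the slide as a random block (adjusted p = 0.0345), with all 14 groups in 1 fit (adjusted p = 0.0388) and without replicate 2 of the 18 µg group (adjusted p = 0.0495).

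Nfkbiz, the gene of IκBζ, read -1.25, -1.16, -1.63, -1.13 and -1.34 in the 5 day 1 controls. It read -0.45, -0.82, -0.60, -0.74 and -0.67 in the 5 mice at 162 µg of NRCWE-030. Every treated mouse lay above every control. The 54 µg group, from -1.06 to -0.80, was also above all controls, which held for 199 of 18656 genes (1.07%), while the 18 µg group, from -1.62 to -0.84, overlapped them. The group means lay in the order of dose, from -1.30 ± 0.20 (SD, n = 5) in the controls to -1.15 at 18 µg, -0.96 ± 0.12 at 54 µg and -0.65 ± 0.14 at 162 µg. The difference at 162 µg was 0.65 ± 0.13 (SE), 1.57-fold, with an adjusted p of 0.0107. At 54 µg it was 0.34 ± 0.13 with an adjusted p of 0.371. Nfkbiz was the only one of the 9 genes called by limma's F-test over the 4 dose levels (adjusted p = 0.0421), among 179 of 18656 genes (0.959%), while 7 of the 9 genes and 11.2% of all genes had an unadjusted p under 0.05. That call was close to the threshold and was lost in many fits that left out 1 array. The F-test called none of the 9 genes without any 1 of the 5 controls or any 1 of the 5 mice at 162 µg. The same held without replicate 1, 2 or 4 at 54 µg, or replicate 5 at 18 µg. The contrast at 162 µg kept its call for Nfkbiz in 20 of 20 fits that left out 1 array, with adjusted p from 0.0034 to 0.0383. It lost the call with the scan day as a fixed block (0.62, adjusted p = 0.0978) and with all 14 groups in 1 fit (0.65, adjusted p = 0.0668).

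The feedback genes Tnfaip3 and Nfkbia had differences above 0 that did not pass the test. Tnfaip3 lay between -0.11 and 0.20 in the 5 controls, the tightest control group of the 9 genes, and at 0.73, 0.50, 0.58, 0.17 and 0.54 at 162 µg of NRCWE-030. Only replicate 4 of the treated mice was inside the control range. The difference was 0.48 ± 0.14 (SE) with an adjusted p of 0.0827. It passed with the scanner's log ratio (0.57, adjusted p = 0.0412), with the slide as a random block (0.52, adjusted p = 0.0308), without replicate 4 at 162 µg (0.57, adjusted p = 0.0453) and without replicate 4 at 18 µg (adjusted p = 0.0471). At 18 µg it was 0.46 with an adjusted p of 0.438, and at 54 µg 0.19 with an adjusted p of 0.786, so that the means did not follow the dose. Nfkbia, the gene of IκBα, read 0.60, 0.58, 1.42, 1.19 and 0.68 in the controls and 1.98, 1.53, 1.60, 1.12 and 1.68 at 162 µg. The difference was 0.69 ± 0.22 with an adjusted p of 0.133, and 0.0491 without replicate 3 of the 18 µg group.

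With NRCWE-025 on day 1, limma called none of the 9 genes at any dose. Over all genes 39 of 18656 (0.209%) were called at 162 µg. Of the 9 genes 2 had an unadjusted p under 0.05 there, Tnfaip3 and Tnf, against 12.3% of all genes, and 9 of 9 fitted differences were above 0, with a median of 0.41, against 49.9% of all genes. Tlr4 (0.04) was below 0 in 3 of 11 alternatives (lowest -0.07) and Tlr7 (0.12) in 1 (-0.04). The F-test over dose called 4 genes of the 18656 (0.0214%) and none of the 9, of which 3 had an unadjusted p under 0.05, against 9.96%. At 18 and 54 µg no gene of the 18656 was called. There 0 and 2 of the 9 had an unadjusted p under 0.05, against 954 and 1219 of the 18656. Tnfaip3 read 0.66, 0.11, 0.50, 0.88 and 0.79 at 162 µg. All but replicate 2 were above the control range. The difference of 0.57 ± 0.16 (SE) had an adjusted p of 0.133, and 0.69 with an adjusted p of 0.0478 without replicate 2. At 54 µg the Tnfaip3 difference was 0.56 ± 0.16 (adjusted p = 0.359). Tnf read -0.81, -0.88, -0.57, -0.26 and -0.38 at 162 µg, a difference of 0.44 ± 0.15 (SE) with an adjusted p of 0.227 (1.05 by the scanner's log ratio, adjusted p = 0.198). With the slide as a fixed block it was 0.19 (adjusted p = 0.659) and with the scan day 0.27 (adjusted p = 0.371). Nfkbiz was split: -1.57, -0.81, -0.44, -0.37 and -1.10, with a difference of 0.44 ± 0.24 (adjusted p = 0.466). Myd88 ran from 0.33 to 1.30 and had a difference of 0.25 ± 0.15 (adjusted p = 0.535).

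The test of NRCWE-030 against NRCWE-025 over the 3 doses called none of the 9 genes on day 1, where it called 30 of 18656 (0.161%). An unadjusted p under 0.05 was found for 0 of the 9 and for 1452 of the 18656. At 162 µg the difference, NRCWE-030 minus NRCWE-025, was 0.20 for Nfkbiz with a 95% interval from -0.21 to 0.61. For Myd88 it was 0.17, from -0.07 to 0.41, and for Cd14 0.53, from -0.15 to 1.21. Tnfaip3 gave -0.08, from -0.40 to 0.24, and Tnf 0.11, from -0.21 to 0.44. Each of these 5 intervals includes 0, which does not show that the NMs acted alike.

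**Figure D2:**
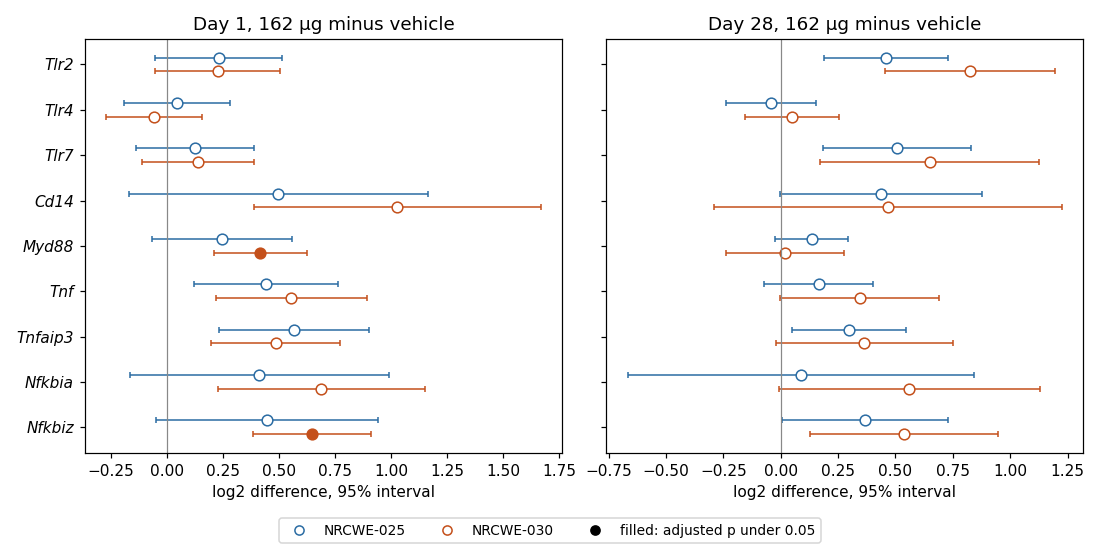
Difference in log2 ratio between 162 µg and vehicle (horizontal axis, with the 95% interval as bars) for the 9 measured genes (vertical axis) on day 1 and day 28, by material. Only Nfkbiz and Myd88 of NRCWE-030 on day 1 carry a filled point (adjusted p under 0.05), Tlr2 and Tlr7 lie farther right on day 28 than on day 1 for both NMs, and the interval of Tlr4 includes 0 in all 4 comparisons.

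On day 28 none of the 9 genes was called by limma in any contrast of a dose with the controls or by the F-tests, and the receptors Tlr2 and Tlr7 had the greatest differences at 162 µg of either NM. At 162 µg, 18 of 18656 genes (0.0965%) were called for NRCWE-030 and 3 (0.0161%) for NRCWE-025. At the lower doses of NRCWE-030 limma called 22 genes (0.118%) at 18 µg and 10 (0.0536%) at 54 µg. In each, 1 of the 9 had an unadjusted p under 0.05, against 1681 and 1218 of the 18656. At those of NRCWE-025 it called 11 (0.059%) and 5 (0.0268%). In these, 0 of the 9 had an unadjusted p under 0.05, against 1653 and 1321 of the 18656. The F-tests over dose called 19 genes (0.102%) for NRCWE-030 and 7 (0.0375%) for NRCWE-025, and 1 and 2 of the 9 had an unadjusted p under 0.05, against 7.08% and 5.77% of all genes. At 162 µg, 3 (NRCWE-030) and 4 (NRCWE-025) of the 9 had an unadjusted p under 0.05, against 7.51% and 7.23% of all genes. The fitted differences were above 0 for 9 of 9 genes (NRCWE-030) and 8 of 9 (NRCWE-025), with medians of 0.47 and 0.30, against 49.3% and 48.7% of all genes. Nfkbia with NRCWE-025 (0.09) was below 0 in 2 of 11 alternatives (lowest -0.0093). The medians over all genes were -0.0018 and -0.0037.

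Tlr2 read 0.10, 0.46, 0.28, 0.56 and 0.66 in the day 28 controls. At 162 µg of NRCWE-030 it read 0.94, 1.52, 1.14, 0.85 and 1.73, each above all controls. Of all genes, 203 of 18656 (1.09%) were so separated, and Tlr2 was the 1 gene of the 9. The means were 0.41 ± 0.22, 0.78, 0.88 ± 0.32 and 1.24 ± 0.38 from control to 162 µg (SD, n = 5). The difference of 0.83 ± 0.18 (SE), 1.77-fold, had an adjusted p of 0.0966. It passed the threshold when the slide was a random block (0.86, adjusted p = 0.0211) or a fixed block (0.93, adjusted p = 0.03), in the authors' values (0.82, adjusted p = 0.0458) and in a fit of all 14 groups (adjusted p = 0.00503), and missed it under the other 7 settings. With NRCWE-025, Tlr2 read 1.20, 0.87, 0.77 and 0.65 at 162 µg, of which 3 of 4 were above all controls, and the difference was 0.46 ± 0.13 (SE) with an adjusted p of 0.394.

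**Figure D3:**
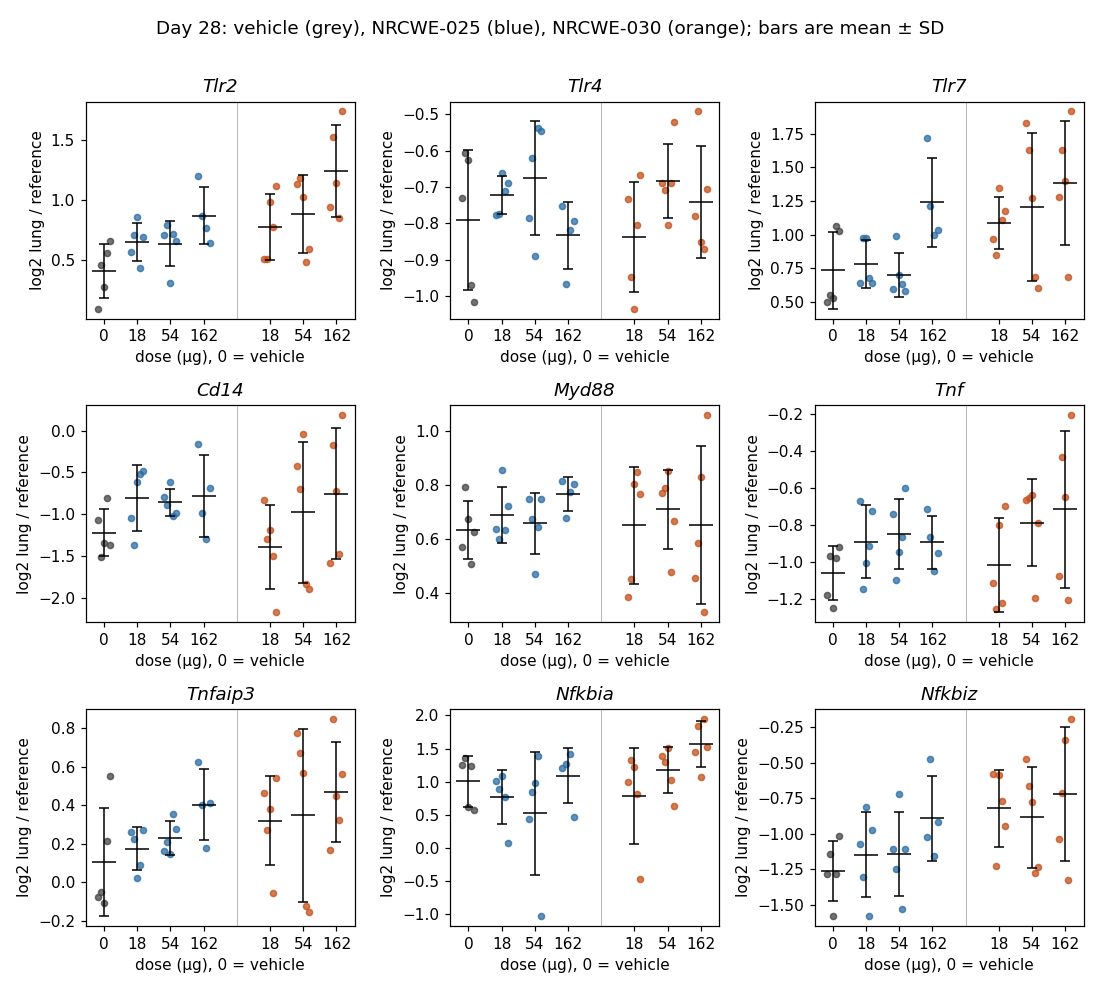
Log2 ratio of lung to reference on day 28 (vertical axis) against dose in µg (horizontal axis) for the 9 measured genes, 1 point per mouse, with the group mean and SD as bars. Tlr2 is the only panel in which the 5 mice at 162 µg of NRCWE-030 lie above all controls. At each dose of NRCWE-030 the SD was larger than in the controls for Tlr2, Cd14, Myd88, Tnf and Nfkbiz.

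Tlr7 read 0.50, 0.55, 0.53, 1.07 and 1.02 in the day 28 controls, which formed a low set of 3 and a high pair. At 162 µg of NRCWE-030 it read 1.28, 1.63, 1.40, 0.68 and 1.92, with replicate 4 inside the control range. The difference was 0.65 ± 0.23 (SE) with an adjusted p of 0.468. With NRCWE-025 it read 1.72, 1.21, 1.00 and 1.03, and the difference was 0.51 ± 0.15 with an adjusted p of 0.43.

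The third gene of NRCWE-030 with an unadjusted p under 0.05 on day 28 was Nfkbiz, at -1.04, -0.72, -0.35, -1.32 and -0.19 against -1.28, -1.14, -1.58, -1.28 and -1.02 in the controls. Its difference of 0.54 ± 0.20 (SE) had an adjusted p of 0.513. Tnfaip3 and Nfkbia gave 0.36 and 0.56, Tnf 0.34 and Cd14 0.47, all with adjusted p from 0.669 to 0.822. Myd88, called on day 1, stood at 0.02 ± 0.12 (adjusted p = 0.989), and Tlr4 at 0.05 ± 0.10 (adjusted p = 0.947).

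The mice of NRCWE-030 on day 28 deviated in the same direction for several of the genes. At 162 µg, replicate 5 was the highest of the 5 for Tlr2, Tlr7, Cd14, Myd88, Tnf and Nfkbiz, and replicate 4 was the lowest for Tlr2, Tlr7, Myd88, Tnf and Nfkbiz. At 54 µg, replicates 4 and 5 were the lowest 2 for Tlr2 (0.49 and 0.59 against 1.03 to 1.19), Tlr7 (0.68 and 0.61 against 1.27 to 1.83), Tnfaip3 (-0.12 and -0.15 against 0.57 to 0.78), Cd14 and Nfkbiz. These 2 arrays lay on different slides, neither of which held a control, and 1 of the slides also held replicate 4 of the 162 µg group. Replicate 5 at 54 µg was 1 of the 4 arrays with a strongly negative Cy5 background estimate before marked backgrounds were replaced. The part of the slide was not tested for single mice.

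Between the NMs on day 28, limma called none of the 9 genes over the 3 doses, among 44 of 18656 (0.236%). The unadjusted p was under 0.05 for 1171 of the 18656 and for 1 of the 9, Tlr7 (adjusted p = 0.509). Its difference, NRCWE-030 minus NRCWE-025, was 0.31 at 18 µg, 0.50 at 54 µg and 0.14 at 162 µg, the last with a 95% interval from -0.22 to 0.51. Tlr2 gave 0.13, 0.25 and 0.37 in the same order, with an interval at 162 µg from 0.04 to 0.69 and an adjusted p of 1.

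The change with time was tested at 162 µg, by taking the difference from the controls on day 28 away from the difference on day 1. Limma called none of the 9 genes for NRCWE-030, among 37 of 18656 (0.198%), or for NRCWE-025, among 11 (0.059%). Respectively 3 and 0 of the 9 had an unadjusted p under 0.05, against 1430 and 1966 of the 18656. For NRCWE-030 the 3 were Tlr2, with a smaller effect on day 1 (-0.60 ± 0.22 SE, adjusted p = 0.397), Tlr7, also smaller on day 1 (-0.51 ± 0.24, adjusted p = 0.61), and Myd88, larger on day 1 (0.40 ± 0.17, adjusted p = 0.524). Tlr2 averaged 0.76 in the day 1 controls and 0.41 in the day 28 controls (-0.35 ± 0.15, adjusted p = 0.512). In that comparison 7 of 18656 genes (0.0375%) were called and none of the 9 by limma. There 1 of the 9 had an unadjusted p under 0.05, against 1594 of the 18656. This difference between the controls enters the -0.60 of Tlr2.

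The rest of the pathway was read from lists of its other genes. Of 18 inflammatory targets of NF-kB, 6 rose and 0 fell on day 1 at 162 µg of NRCWE-030, among them the chemokines Ccl2, Ccl3 and Ccl4 (2.09, 1.28 and 2.1), the cytokine Il1b (1.27) and the adhesion molecule Vcam1 (0.59). The adjusted p of these 5 ran from 0.0154 to 0.0309. Fitted differences were above 0 for 17 of the 18 genes, with a median of 0.63. With the slide or the scan day as a fixed block limma called none of these 5 targets, at values from 0.36 to 2.42 (adjusted p from 0.0578 to 0.3). Ccl3 was also not called in the authors' values (adjusted p = 0.0608), nor Vcam1 with the brightest probe (0.68, adjusted p = 0.163). The sixth target, the cytokine gene Il6 (1.21, adjusted p = 0.0372), named after its values were seen, was called in 6 of 11 alternatives. Among these, Aquantile scaling, the filter on dim probes and the brightest probe left its difference unchanged and are no separate check. Il6 was not called with marked backgrounds left in place (adjusted p = 0.0623), without background correction (0.0697) or in the authors' values (0.0655). Nor was it with the slide (0.113) or the scan day (0.213) as a fixed block. With 1 array left out, the calls held in 16 of 20 fits for Ccl2, 13 for Ccl3, 14 for Ccl4, 19 for Il1b, 18 for Vcam1 and 11 for Il6. Each fit that lost a call of the first 5 left out control replicate 2, 3 or 4 or replicate 1, 2, 3 or 5 at 162 µg (adjusted p up to 0.0998). Of the 16 measured adaptors and proximal kinases only Traf3, an adaptor of the interferon branch, was called (0.48 ± 0.11, adjusted p = 0.033), with a list median of 0.039. Of 5 interferon regulatory factors Irf7 was called (0.98 ± 0.23, adjusted p = 0.0377). None was called by limma among the 5 other measured Toll-like receptors, the 9 receptor partners and chaperones, the 9 NF-kB subunits and IKK kinases, the 15 other feedback genes and the 12 genes of Tnf ligands and receptors, whose medians lay from 0.10 to 0.14. Per mouse, the mean log2 ratio of the subunits and IKK kinases ran from -0.54 to -0.31 in the controls and from -0.24 to -0.16 at 162 µg. That of the other feedback genes ran from 0.1176 to 0.1932 and from 0.1933 to 0.3154. The inflammatory targets (-0.85 to -0.56 and -0.41 to 0.51) and interferon regulatory factors (0.21 to 0.55 and 0.63 to 0.74) did not overlap either. The other lists of this paragraph overlapped, and no list mean was tested. Traf3 and Irf7 were not called with either block as a fixed term, at 0.33 to 1 (adjusted p from 0.237 to 0.42). Irf7 was also not called with all 14 groups in 1 fit (adjusted p = 0.278) or in the authors' values (adjusted p = 0.0503). With 1 array left out Irf7 was called in 11 of 20 fits, losing the call without control replicate 1, 3, 4 or 5, replicate 1, 2, 3 or 5 at 162 µg or replicate 4 at 18 µg (adjusted p up to 0.104), and Traf3 in 15 of 20, losing it without control replicate 1 or 3 or replicate 1, 3 or 4 at 162 µg (adjusted p up to 0.0835). In the other 3 comparisons of 162 µg with the controls limma called none of the genes of these lists.

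Markers of leukocytes and genes of the daily clock were among those called. Of 11 neutrophil markers Csf3r rose on day 1 at 162 µg of NRCWE-030 (1.25 ± 0.20, adjusted p = 0.00261, and 0.30 with an adjusted p of 0.795 by the scanner's log ratio), 8 of 11 differences were above 0 and the median was 0.071. The mean log2 ratio of the list per mouse ran from 1.57 to 2.05 in the controls and from 1.69 to 2.30 at 162 µg. Of 11 monocyte and interstitial macrophage markers Itgam rose (0.46 ± 0.10, adjusted p = 0.0197), with list means from 1.59 to 1.95 in the controls and from 1.74 to 2.20 at 162 µg. On day 28, 10 of these 11 monocyte and interstitial macrophage markers and 7 of 9 alveolar macrophage markers had differences above 0 at 162 µg of NRCWE-030, with medians of 0.24 and 0.37 and none called by limma in either list. Per mouse the monocyte and interstitial macrophage list then ran from 1.65 to 2.10 in the controls and from 1.76 to 2.39 at 162 µg, and the alveolar macrophage list from 3.28 to 3.82 and from 3.63 to 3.92. The neutrophil markers had 1 of 11 differences above 0 on day 28, with list means from 1.60 to 2.36 in the controls and from 1.44 to 1.88 at 162 µg. Csf3r and Itgam were not called with the slide or the scan day as a fixed block (adjusted p from 0.0871 to 0.213), and Itgam also not without background correction (adjusted p = 0.053), by the scanner's log ratio (0.99, adjusted p = 0.0863), in the authors' values (adjusted p = 0.0728) or without control replicate 1 or replicate 2 at 162 µg (adjusted p up to 0.0645). Of 8 clock genes, 2 were called at 162 µg of NRCWE-030 on day 1 and 3 on day 28, Arntl (-1.51 and -1.37) and Dbp (1.79 and 2.27) on both days, and Per2 on day 28 alone (0.74). Dbp on day 28 was not called with the scan day as a fixed block (adjusted p = 0.0862), nor was Per2 without background correction (0.70, adjusted p = 0.0505), with marked backgrounds left in place (0.71, adjusted p = 0.2) or by the scanner's log ratio (0.97, adjusted p = 0.0641). With 1 array left out, the day 1 calls held in 18 of 20 fits for Arntl (adjusted p up to 0.0573) and in 14 for Dbp (up to 0.0679). The day 28 calls of Arntl, Dbp and Per2 held in 20 of 20. The other lists held no gene called by limma at 162 µg of NRCWE-030. The 8 immediate early genes had 5 differences above 0 on day 1 and 8 on day 28, with list means per mouse on day 28 from -1.25 to -0.49 in the controls and from -0.54 to -0.10 at 162 µg. The 6 glucocorticoid-responsive genes had 4 and 6 above 0, with list means from -0.27 to 0.77 and from 0.24 to 0.66 on day 1 and from 0.06 to 0.67 and from 0.10 to 1.24 on day 28. The 5 fat markers had 0 above 0 on either day, with list means from 0.76 to 4.14 in the controls and from -0.0045 to 2.25 at 162 µg on day 1, and from 0.68 to 4.50 and from 0.17 to 2.38 on day 28. Medians of the airway, alveolar and endothelial lists lay from -0.53 to -0.13 on day 1 and from -0.02 to 0.02 on day 28, those of 7 heart muscle markers were -0.10 and -0.71, and those of 7 B and T cell markers -0.04 and 0.05. The part of these marker lists and clock genes in the values of the 9 genes was not tested.

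Each slide held arrays of only some of the groups. Within the 2 slides that held both a day 1 control and a mouse at 162 µg of NRCWE-030, Nfkbiz differed by 0.68 and 0.74, Myd88 by 0.53 and 0.27 and Cd14 by 1.86 and 1.67. Tnf differed by 0.51 and 0.52, and Tnfaip3 by 0.63 to 0.71. Nfkbia differed by 0.79 and 0.92, Tlr2 by 0.09 and 0.16, Tlr7 by -0.24 and -0.05 and Tlr4 by 0.17 and -0.07. Within the 3 such slides of day 28, Tlr2 differed by 0.84, 1.25 and 0.48, and Tlr7 by 0.38 to 1.1. Nfkbiz, Nfkbia and Tnf were also above 0 on all 3, while the slides differed in sign for Cd14 (-0.51 to 1.17), Tnfaip3 (-0.10 to 0.96), Myd88 (-0.11 to 0.20) and Tlr4 (-0.05 to 0.16). For NRCWE-025 on day 1, the 2 slides with both groups were of opposite sign for Nfkbiz (-0.32 and 0.82), Cd14 (-0.92 and 0.71), Nfkbia (0.50 and -0.66), Tlr2 (-0.16 and 0.44), Tlr4 (-0.32 and 0.15) and Tnf (-0.08 and 0.30), and both above 0 for Tnfaip3, Myd88 and Tlr7. The 1 such slide of NRCWE-025 on day 28 gave 0.64 for Tlr2 and 0.65 for Tlr7. Each of these values is 1 mouse against 1 control. With the slide as a random block, the day 1 contrast called 5 of the 9 genes (Nfkbiz, Myd88, Cd14, Tnf and Tnfaip3), as a fixed block Nfkbiz alone, and with the scan day as a fixed block none.

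**Figure D4:**
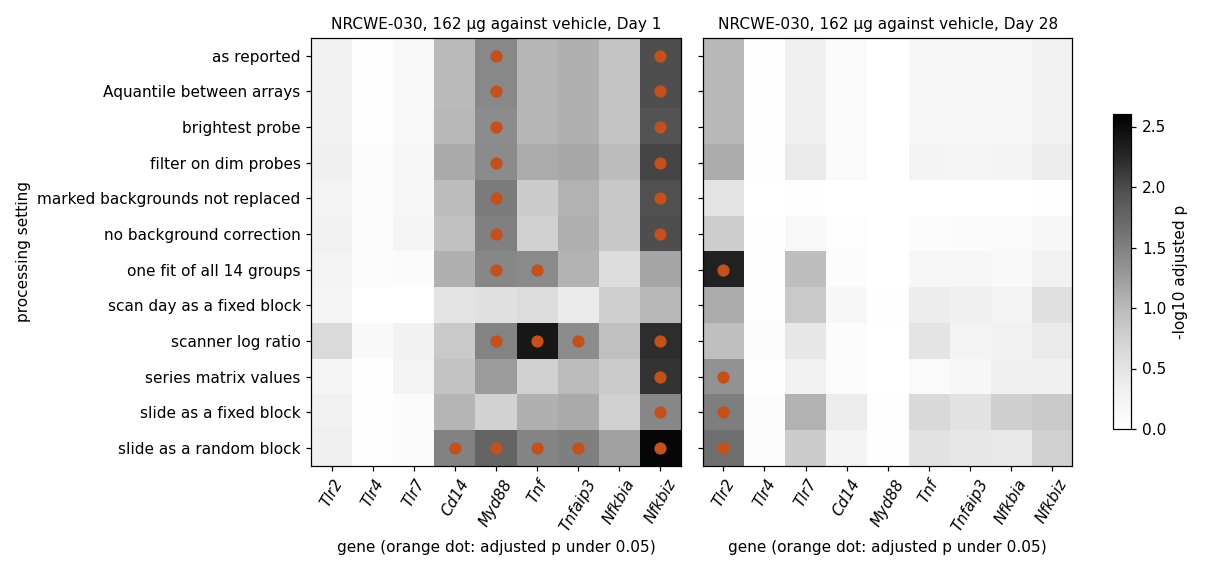
Adjusted p (grey scale, -log10) of the 9 measured genes (horizontal axis) at 162 µg of NRCWE-030 against vehicle on day 1 and day 28, under the reported processing and 11 alternatives (vertical axis), with an orange dot where it was under 0.05. Nfkbiz carries a dot in the reported row and 9 alternatives and Myd88 in the reported row and 8 on day 1, and Tlr2 in 4 alternatives on day 28. Aquantile scaling, the brightest probe and the filter on dim probes leave the log2 ratios of the 9 genes unchanged, so these rows are no separate check of them.

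Over the 69 arrays the 9 genes fell into pairs that varied together to different degrees, given here as a description, since arrays share doses and batches. Tlr2 and Tnf had the highest Pearson r (0.67), followed by Tnf and Tnfaip3 (0.62), Cd14 and Nfkbiz (0.61) and Tlr2 and Tlr7 (0.57). Tlr4 had no r above 0.22 with another of the genes. Nfkbia had an r of 0.38 with Tnfaip3 and 0.14 with Nfkbiz.

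**Figure D5:**
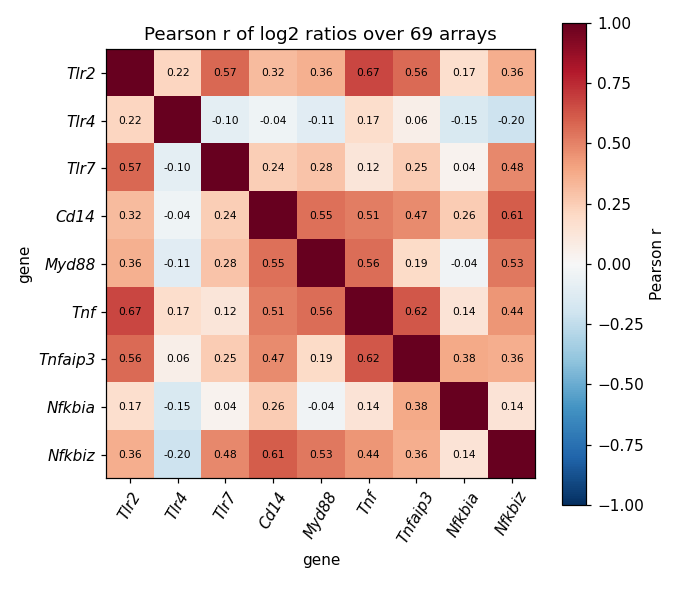
Pearson r of log2 ratios over the 69 arrays between each pair of the 9 measured genes (both axes), as colour and number. The highest value is 0.67, for Tlr2 and Tnf, and the row of Tlr4 holds values from -0.20 to 0.22.

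Likeness was then taken over 13700 genes that were bright enough in Cy5 on most arrays, and the genes most alike differed in kind. For Tlr2 they were Slc15a3, Gpnmb and Trem2 (r from 0.76 to 0.78), of which Trem2 is a receptor of macrophages. For Tlr7 they were Cd84, Casp1 and Siglec1 (0.83 to 0.85), the last a macrophage lectin. For Cd14 they were Cp, Muc4 and Pigr (0.84 to 0.92), the genes of ceruloplasmin, a mucin and the epithelial receptor for polymeric immunoglobulins. Tnf was most like Ccl3, Lilrb4a and Slc37a2 (0.85 to 0.89), and Tnfaip3 like Rgs1, Cxcl5 and Ch25h (0.70 to 0.75). Myd88 was most like Eif2ak2, Vav1 and Esd (0.75 to 0.79). Nfkbiz was most like Vnn1, Noxo1 and Ly6f (0.69 to 0.70), Nfkbia like Nup88, Slc35b1 and Cdk18 (0.74 to 0.75) and Tlr4 like Arl6ip6, Desi2 and Isg20l2 (0.63 to 0.70).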

How the data were processed

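The arrays were Agilent two-colour mouse arrays, read by Agilent Feature Extraction 11.0.1.1 per the file headers. The deposited scanner files hold median spot and local background signals as linear intensity, used here. Their log10 ratio of Cy5 over Cy3, made by the scanner software after its own background and dye correction, served as an alternative, as did the authors' log2 values in the series matrix. For these the methods name LOWESS, and the main direction and scale were checked against the spot signals (median slope 0.993, r = 0.996).

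Local backgrounds marked as outliers were replaced by the array median, because without this 4 arrays had strongly negative background estimates, followed by normexp (offset 50) and loess within arrays in limma 3.58.1 (R 4.3.3, statmod 1.5.0). Spots and then probes were combined by the median, and 18656 genes without missing values were tested. Each material and day had 1 limma fit of the controls and 3 doses, and 1 fit of all 14 groups tested materials, days and controls. All tests were two-sided, with Benjamini-Hochberg adjustment over all genes. Nothing in the labels ties arrays to cages or extraction days. The number of arrays limits the precision. The highest correlation between 2 arrays over genes was 0.9918. No threshold for a repeated sample was set, so this value does not tell whether 1 was present. On data simulated for 162 µg of NRCWE-030 on day 1, with 18656 genes, limma called 28 of 50 genes changed by 0.5 log2 units, 45 of 50 changed by 1 and 50 of 50 changed by 2. The simulated noise was independent between arrays, at each gene's own spread and without slide or scan-day effects.

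The genes, lists and tests were chosen with earlier results of these data known. Text named at most 5 genes per pathway list, those with the smallest F-test p among called genes, plus markers and, for each gene, the 3 most alike by Pearson r. Promoter windows came from RefSeq (GRCm38.p6) and were searched for the decamer on both strands. Alternatives changed the background, the normalization, the filter, the probe rule, the blocks, the samples fitted and each array in turn. Plots used matplotlib 3.10.9 in Python 3.11.15.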

Additional observations from a re-analysis of the deposited data

Results flagged for a closer look

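In 4 of 126 combinations of gene and group the highest or lowest mouse stood apart from the others by Dixon's 95% criterion, and chance gives this in about 1 in 20 groups. Tlr2 read 0.31 in replicate 3 of NRCWE-025 54 µg day 28, against 0.66 to 0.79 in the other mice. Tlr7 read 0.41 in control replicate 1 of day 1, against 0.72 to 0.81. Tlr7 read 0.99 in replicate 2 of NRCWE-025 54 µg day 28, against 0.58 to 0.70. Tnf read -1.19 in replicate 4 of NRCWE-030 54 µg day 28, against -0.79 to -0.64.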

How the results depend on the processing

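Most comparisons called none of the 9 genes under every one of the 11 alternatives, and 5 counts moved. For the NRCWE-030 dose effect on day 1 (1 gene) the count was 2 with the scanner's log ratio and with the slide as a random block, and 0 with the scan day as a fixed block and with all 14 groups fitted together. At 162 µg of NRCWE-030 on day 1 (2 genes) it was 4 with the scanner's log ratio, 5 with the slide as a random block, 1 with the slide as a fixed block, 1 in the authors' values and 0 with the scan day as a fixed block. With all 14 groups fitted together the count stayed at 2, but with Tnf in place of Nfkbiz. At 54 µg it was 1, Tnf, with the scanner's log ratio. For NRCWE-030 on day 28 the dose effect called 1 gene, Tlr2, with the slide as a random block and with all 14 groups fitted together, and the contrast at 162 µg called 1, Tlr2, under the same 2 settings, with the slide as a fixed block and in the authors' values. The cause was not tested. Leaving out 1 array gave counts of 0 to 1 for the dose effect and 1 to 3 at 162 µg of NRCWE-030 on day 1, 0 to 1 at 162 µg of NRCWE-025 on day 1, and 0 elsewhere. No called difference at 162 µg changed direction under any alternative. Among those not called, Tlr4 and Tlr7 changed sign on day 1 for both NMs and Nfkbia on day 28 for NRCWE-025 under the 11 alternatives. With 1 array left out, Tlr4 changed sign on both days for both NMs, in 1 or 2 fits each. Myd88 did so on day 28 for NRCWE-030 (3 of 20 fits) and Nfkbia on day 28 for NRCWE-025 (3 of 19). Over all genes the number called moved by more than 1.5 times in most comparisons. At 162 µg of NRCWE-030 on day 1 it was 319 as reported, 529 with the scanner's log ratio, 495 and 72 with the slide as a random and a fixed block, 50 with the scan day as a fixed block and 584 with all 14 groups fitted together. On day 28 it was 18 as reported and ranged from 5 to 71, and for NRCWE-025 it was 39 with a range from 0 to 170 on day 1 and 3 with a range from 2 to 9 on day 28. The dose effects ranged from 88 to 461 (179) and 3 to 90 (19) for NRCWE-030 on day 1 and day 28 and from 0 to 135 (4) and 1 to 14 (7) for NRCWE-025, with the reported count in parentheses. The lower doses of NRCWE-030 ranged from 0 to 10 (1) and 9 to 118 (15) on day 1 and 0 to 110 (22) and 1 to 93 (10) on day 28, and those of NRCWE-025 from 0 to 46 (11) and 2 to 9 (5) on day 28. The materials ranged from 12 to 81 (30) and 8 to 61 (44), the days from 18 to 77 (37) for NRCWE-030 and 2 to 205 (11) for NRCWE-025, and the controls from 0 to 1381 (7). Aquantile scaling leaves ratios as they are. So do the filter on dim probes and the brightest-probe rule for the 9 genes, which have 1 probe each. No paired analysis by replicate number was possible because the labels number each mouse separately and the groups share no numbers, while shared slides and scan days were fitted as blocks. In simulated data without slide or scan-day effects, limma called 28 of 50 changes of 0.5 log2 units. Detection also depends on the spread of a gene. On day 1 at 162 µg of NRCWE-030, Cd14 at 1.03 and Nfkbia at 0.69 were not called. A gene that was not called may thus have changed by more than 0.5. Tnf was near background, and 5 of the 9 genes rest on 1 spot.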
